A study of Mus musculus with 9 samples.

Results

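The 40 genes described here make the machinery that transcribes ribosomal RNA and assembles it into ribosomal subunits. They were taken by gene name from a list of nucleolar and RNA polymerase I genes by what they are known to do, not by a cut on their values, and all 40 were present among the 19769 genes of the RNA table. RNA-seq was performed on primary mouse embryonic fibroblasts (MEFs) homozygous for a Myc-Egfp fusion allele at the endogenous Myc locus, so that GFP reported the MYC protein. All cells were treated with the proteasome inhibitor MG-132 at 20 µM for 6 h, which enhances the MYC-GFP signal, and were then sorted into a low-MYC and a high-MYC pool by GFP. The sorted cells were seeded overnight, and external spike-in RNA was added in proportion to the cell count before RNA extraction. Each pool gave 2 libraries, which the study calls technical replicates, so the p-values below compare these 4 libraries and say nothing of the spread between mice or sorts. A list of FUBP1 ChIP-seq peaks from MEFs and a table of TACh-seq reads (fragments released from open chromatin by a brief nuclease digestion of MEFs) were also used, each without a comparison between conditions. The TACh-seq samples were wild-type MEFs and Fubp1-knockout MEFs with Fubp2 knocked down by siRNA (KOKD).

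Ribosome production starts in the nucleolus, where RNA polymerase I copies the ribosomal DNA into a long precursor RNA. Small nucleolar ribonucleoproteins (snoRNPs) then modify this precursor at set positions, and the small-subunit processome and the large-subunit factors fold and cut it while ribosomal proteins join. MYC is well known as an activator of this programme: it binds DNA with its partner MAX, most tightly at the E-box, a palindrome of the letters CACGTG.

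Because the sort was by MYC, the E-box sequences near these genes are shown first. Of the 40 genes, 35 had a promoter entry in RefSeq (GRCm38.p6, 250 bases before to 50 after each start), while Npm1, Fbl, Rrp12, Tcof1 and Bop1 had none. CACGTG lay in the promoter of 8 of the 35 genes (22.9%), beside 12.1% of the 8390 tested genes with an entry. Counted over promoters of this length, since a gene can have several, the motif was in 18.6% of the 43 promoters of the set, 10.3% of those of tested genes and 7.15% of all 32851. In the 30-base windows below, capitals mark CACGTG, each window reads 5′ to 3′ on the strand of the gene, and the offset gives the first base of the motif from the start, with the start base as 0.
Mybbp1a (chr11:72441355-72441384, plus strand, offset 40): gtcttctgagccCACGTGtttggctcagca
Pes1 (chr11:3963965-3963994, plus strand, offset 2): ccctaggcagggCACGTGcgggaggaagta
Nop2 (chr6:125131811-125131840, plus strand, offset -60): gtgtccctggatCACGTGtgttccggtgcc
Imp4 (chr1:34439696-34439725, plus strand, offset -121): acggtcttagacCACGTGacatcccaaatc
Rrn3, distal (chr16:13780472-13780501, plus strand, offset -215): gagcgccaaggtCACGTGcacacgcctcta
Rrn3, proximal (chr16:13780639-13780668, plus strand, offset -48): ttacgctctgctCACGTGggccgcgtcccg
Utp4 (chr8:106893643-106893672, plus strand, offset 15): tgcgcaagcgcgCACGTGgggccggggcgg
Wdr43 (chr17:71616220-71616249, plus strand, offset 17): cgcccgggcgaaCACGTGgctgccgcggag
Utp20 (chr10:88826760-88826789, minus strand, offset 37): cggcactaactaCACGTGaggaaaagcagg

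The motifs of Mybbp1a, Pes1, Utp4, Wdr43 and Utp20 lay in an annotated exon, outside its coding sequence, and those of Nop2, Imp4 and Rrn3 lay upstream of the annotated transcripts (GENCODE M21). Rrn3 was the gene with a pair of sites in its promoter. Windows of 1000 bp on either side of the start, a width chosen after the promoter counts were seen, held CACGTG for 25 of the 35 genes (71.4%), beside 36.4% of tested genes. The motifs of the set were placed mostly after the start: 21 genes (60.0%) had one downstream and 7 (20.0%) had one upstream, beside 18.9% and 23.0% of tested genes. Ncl, which encodes the abundant nucleolar protein nucleolin, had the most, with 5 motifs in an intron from 620 to 823 bases after the start. These 5 are shown because they form the densest cluster, and they were singled out after their number was seen.
Ncl, first (chr1:86358818-86358847, minus strand, offset 620): cgcctccccgcgCACGTGctctggtgcgcg
Ncl, next (chr1:86358794-86358823, minus strand, offset 644): tgcgcggcccgcCACGTGctctgcggagcc
Ncl, middle (chr1:86358773-86358802, minus strand, offset 665): tgcggagccccgCACGTGtcgcgcgacccg
Ncl, second to last (chr1:86358652-86358681, minus strand, offset 786): gaccgggatggaCACGTGgtggacccctga
Ncl, last (chr1:86358615-86358644, minus strand, offset 823): gcgtggtgactcCACGTGgtggggctggaa

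A match to these letters describes the sequence and was not tested as a bound site, and the shares were not matched for base composition.

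The deposited RNA values are fragments per kilobase (FPK) divided by a spike-in score, and therefore stand for RNA per counted cell. Their sum over all genes was 46321 and 48291 in the low-MYC libraries and 102853 and 109090 in the high-MYC libraries. After a filter for a mean of at least 0.1, 11870 genes were tested, and all 40 genes of the set passed. Each gene was also expressed as its share of the library total in ppm (parts of the total scaled to 1e+06), which does not depend on the spike-in score. Myc mRNA itself was at 9.81 and 9.86 FPK in low-MYC cells and at 20.3 and 20.5 FPK in high-MYC cells. In share Myc was lower in high-MYC cells, at 212 and 204 ppm against 197 and 188 ppm, a log2 difference of -0.11. Of 15 macrophage markers, 11 were tested, and 10 of these were called higher in share in high-MYC cells (1.78% of all genes tested). Apart from Cd68 and Cd14, the tested markers had low-MYC means below 0.1 and passed the filter only through the high-MYC libraries. For these, a call of higher was largely set by the filter and is not used as support. The summed FPK of the 15 markers was 0.949 and 1.30 in low-MYC and 30.2 and 31.6 in high-MYC libraries. C1qa, Tyrobp and Adgre1 were listed at 0 in the first low-MYC library. The 10 fibroblast markers were all called higher on the spike-in scale (97.1% of all genes tested), and in share 3 were called higher (1.78%). In share 7 of the 10 had both high-MYC libraries above both low-MYC libraries (33.9%), 1 had both below (28.4%), and the sum of the 10 changed by 7.57%. The 6 lymphocyte markers were not among the listed genes. The part of the macrophage markers in the results below was not tested, and in such pools a different mix of cells and a different amount of RNA per cell cannot be told apart.

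All 40 ribosome biogenesis genes rose in high-MYC cells per counted cell. The median log2 difference was 1.05, with a range from 0.87 for Utp15 to 1.17 for Tcof1, and for each of the 40 genes both high-MYC libraries lay above both low-MYC libraries. By limma with Benjamini-Hochberg adjustment all 40 were called higher (adjusted p from 1.04e-05 to 6.78e-05), beside 97.1% of all genes tested, and 0 were called lower (0.0253%), so a call here did not set the genes apart. With a fold of at least 2 as well, 27 of 40 were called, beside 55.1% of all genes tested. This count rests on the constant of 0.1 added before taking logs: with 1 it became 4 of 40 beside 12.2% of all genes, and with 0.01 it became 33 of 40 (82.5%) beside 84.9%. By the ratio of the group means with no constant, a measure chosen after these counts were seen, 35 of the 40 genes were called and at least 2-fold higher, beside 87.7% of all genes tested. The 5 below 2-fold by this ratio were Utp15 (1.92), Rrp9 (1.95), Nop14 (1.97), Ebna1bp2 (1.99) and Nop58 (1.996). The numbers at 2-fold in the paragraphs on each role use this ratio and its 87.7%. The median of all genes tested was 1.03, and the middle 90% of genes ran from 0.59 to 1.35, while the middle 90% of the set ran from 0.89 to 1.16. Which median was the higher depended on the constant added before taking logs: with 0.01 it was 1.07 for the set and 1.15 for all genes, and with 1 it was 0.81 and 0.53.

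**Figure D1:**
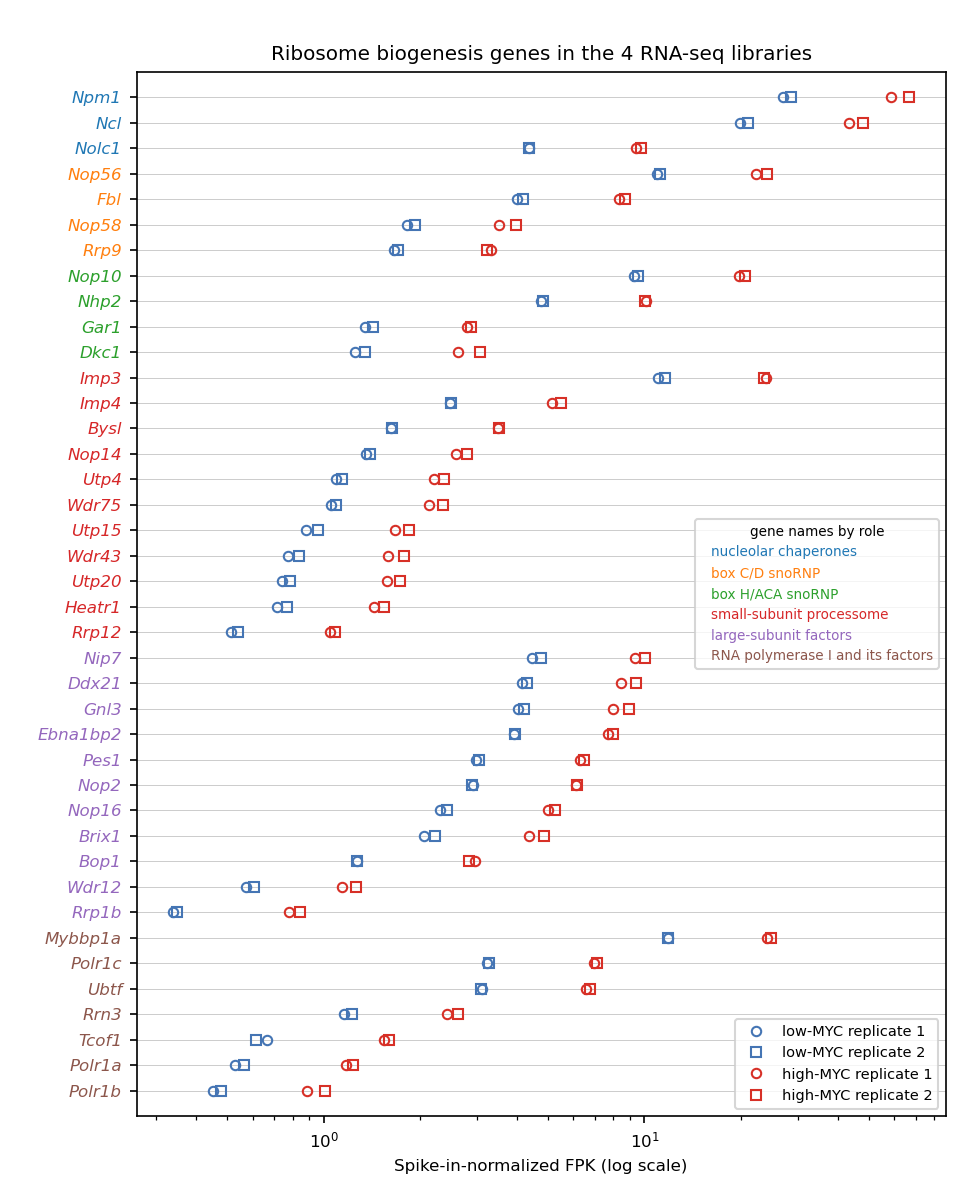
Spike-in-normalized FPK of the 40 genes in each of the 4 libraries, on a log axis, with genes grouped by role and sorted by level. Blue marks are low-MYC and red marks high-MYC libraries, circles are replicate 1 and squares replicate 2. Every red pair lies to the right of its blue pair, and levels span from 0.340 FPK for Rrp1b to 66.8 FPK for Npm1.

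As a share of the library, the same genes were mostly slightly lower in high-MYC cells. Together the 40 genes took 0.342% and 0.341% of the total in the low-MYC libraries and 0.326% and 0.329% in the high-MYC libraries. The groups did not overlap, and the mean changed by -4.24%. An exact two-sided permutation test gave p = 0.33, the smallest value that 2 against 2 libraries allow. The median log2 difference in share was -0.09, beside 0.01 for all genes tested, and 35 of the 40 genes were below 0, beside 47.0% of all genes. In 30 of the 40 genes both high-MYC libraries lay below both low-MYC libraries (28.4% of all genes tested), and in 2, Rrp1b and Tcof1, both lay above (33.9%).

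No single gene passed the test for a difference in share. By limma with Benjamini-Hochberg adjustment, 0 of 40 were called higher (1.78% of all genes tested) and 0 were called lower (0.531%) at an adjusted p below 0.01. At an unadjusted p below 0.05, 17 were lower (12.9% of all genes) and 0 were higher (18.7%). The 95% intervals of the 40 log2 differences reached no lower than -0.34, for Rrp9, and no higher than 0.29, for Tcof1. Between replicates of a group, the absolute log2 difference in share had a median over the 40 genes of 0.0275 for the low-MYC pair and 0.0476 for the high-MYC pair, and was highest for Tcof1 in the first (0.165) and for Bop1 in the second (0.149). It exceeded the median group difference of -0.09 in size for 1 gene in the low-MYC pair and for 8 genes in the high-MYC pair.

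**Figure D2:**
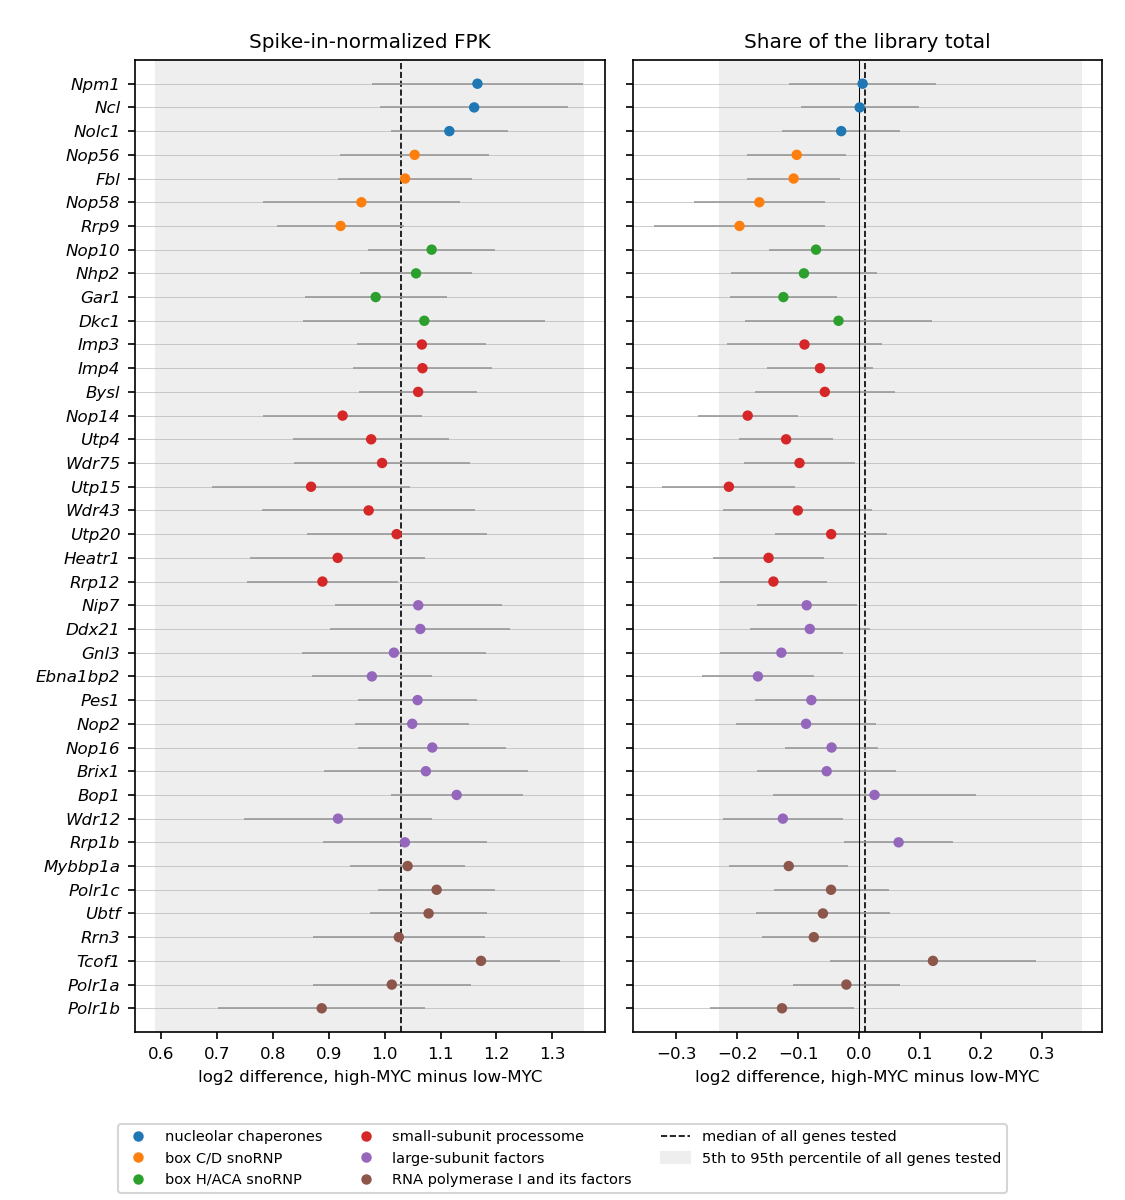
Log2 difference, high-MYC minus low-MYC, of each of the 40 genes on the spike-in scale (left) and in share of the library total (right), with 95% intervals from limma. The dashed line is the median and the grey band the 5th to 95th percentile of all genes tested. On the left all points lie from 0.87 to 1.17, and on the right 35 of 40 lie below 0.

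The nucleolar chaperones were the group of genes whose share differed least between low-MYC and high-MYC cells, with overlapping libraries for all 3. Npm1, the histone and ribosome chaperone nucleophosmin, was the most abundant gene of the set at 27.1 and 28.7 FPK in low-MYC and 58.7 and 66.8 FPK in high-MYC cells. Its share was 584.3 and 593 ppm against 571 and 612 ppm, so the groups overlapped, with a log2 difference of 0.0055 ± 0.044 (SE, n = 2 libraries per group). Ncl rose from 19.8 and 21.0 to 43.4 and 48.2 FPK, a log2 difference of 1.16 ± 0.066. In share Ncl was at 428 and 434 ppm against 421 and 441 ppm, and these groups overlapped too. Nolc1, a chaperone of snoRNPs, differed in share by -0.03. The 3 genes summed to 0.111% and 0.112% of the total in low-MYC and 0.108% and 0.114% in high-MYC cells, a change of 0.0918%, and all 3 rose at least 2-fold per cell.

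Box C/D snoRNPs guide 2′-O-methylation of ribosomal RNA and their genes had the lowest median difference in share of the 6 roles, at -0.14. All 4 of their genes had both high-MYC libraries below both low-MYC libraries in share (28.4% of all genes tested), and the summed share changed by -7.92%. Nop56, a core scaffold protein, took 237 and 232 ppm in low-MYC and 216 and 220 ppm in high-MYC cells. Nop58, its partner in the core, took 39.4 and 39.97 ppm against 34.3 and 36.3 ppm. Fbl, the methyltransferase fibrillarin, took 86.8 and 86.7 ppm against 81.0 and 79.8 ppm. Rrp9, which binds the U3 snoRNA, had the lowest difference of the 4, with 35.8 and 35.3 ppm against 32.3 and 29.6 ppm, a log2 difference of -0.20 ± 0.051. None passed the adjusted threshold: by limma with Benjamini-Hochberg adjustment the adjusted p ran from 0.0754 for Nop58 to 0.105 for Nop56. Per cell all 4 rose, and 2 of them, Nop56 and Fbl, at least 2-fold. Rrp9 overlaps Parp3 on the opposite strand by 987 bp. The library kit was a stranded one, and whether the counting used the strand is not given in the sources used here.

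The box H/ACA snoRNPs convert uridine to pseudouridine, and Dkc1 encodes their catalytic subunit dyskerin. Dkc1 was at 27.0 and 27.9 ppm in low-MYC and at 25.5 and 28.1 ppm in high-MYC cells, so that its groups overlapped. The other 3 subunits were non-overlapping and lower in share: Gar1 differed by -0.12, Nhp2 by -0.09 and Nop10 by -0.07. The summed share of the 4 changed by -5.29%, and per cell all 4 rose at least 2-fold. The mRNA levels of these subunits were unequal in both groups. Nop10 was 7.28 times Dkc1 in low-MYC and 7.11 times in high-MYC cells on the length-normalized FPK scale, and Nhp2 was 3.47 and 3.56 times Gar1. For both ratios the libraries of the groups overlapped.

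The small-subunit processome, the large particle that forms on the 5′ end of the precursor, was lower in share in 11 of 11 genes (47.0% of all genes tested), with 10 non-overlapping (28.4%) and a summed change of -6.74%. Utp15, a subunit of the UTP-A complex that engages the precursor first, had the lowest difference of all 40 genes. It was at 19.0 and 19.8 ppm in low-MYC and at 16.3 and 16.9 ppm in high-MYC cells, a log2 difference of -0.21 ± 0.040 with an adjusted p of 0.0478 by limma with Benjamini-Hochberg adjustment. Nop14, needed for 18S rRNA maturation, was at 29.1 and 28.8 against 25.2 and 25.7 ppm, a log2 difference of -0.18 ± 0.030 with an adjusted p of 0.0385 in the same limma fit with Benjamini-Hochberg adjustment. These were the 2 genes of the set below 0.05, a level that 3.89% of all genes tested reached on the lower side, and 0 reached it on the higher side (7.77%). Heatr1 and Rrp12 followed with -0.15 and -0.14. Utp4 was at -0.12, Wdr43 and Wdr75 each at -0.10, Imp3 at -0.09, Imp4 at -0.06, Bysl at -0.06 and Utp20 at -0.05. On the spike-in scale all 11 rose, 9 of them at least 2-fold, the exceptions being Utp15 and Nop14. Imp3, a small U3 snoRNP protein, was the most abundant of the 11 at 11.02 and 11.59 FPK in low-MYC and 24.0 and 23.6 FPK in high-MYC cells, and stood at 4.55 and 4.48 times the level of its partner Imp4 in the means of the groups.

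Among the 11 large-subunit factors, 9 were below 0 in share (47.0% of all genes tested), 8 of them non-overlapping (28.4%), and the summed share changed by -6.05%. Pes1, Bop1 and Wdr12 form the PeBoW complex, which is needed for processing of the precursor into the large-subunit RNAs. Pes1 was at 64.5 and 63.1 ppm in low-MYC and at 61.4 and 59.3 ppm in high-MYC cells. Bop1 was at 27.5 and 26.3 against 28.8 and 26.0 ppm, so its groups overlapped, whereas Wdr12 was at 12.3 and 12.5 against 11.1 and 11.6 ppm. The 3 members of this complex thus spread over log2 differences of -0.08, 0.03 and -0.13. Ebna1bp2, which encodes a nucleolar protein of the early large-subunit particle, had the lowest value of the 11, at -0.17 ± 0.034. Gnl3, the GTPase nucleostemin, was at -0.13, Nop2, an RNA methyltransferase, at -0.09, Nip7 at -0.09, the helicase Ddx21 at -0.08, Brix1 at -0.05 and Nop16 at -0.05. Rrp1b had the lowest level of the 40 genes, at 0.340 and 0.349 FPK in low-MYC and 0.781 and 0.842 FPK in high-MYC cells, and its share was higher, at 7.34 and 7.22 against 7.60 and 7.72 ppm. All 11 rose per cell, and 10 at least 2-fold, the exception being Ebna1bp2.

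RNA polymerase I and its factors gave the widest spread in share, with a summed change of -5.71%. Polr1a, the largest catalytic subunit, was at 0.529 and 0.564 FPK in low-MYC and at 1.18 and 1.23 FPK in high-MYC cells, with a share difference of -0.02 and overlapping groups. Polr1b, the second catalytic subunit, was at 9.76 and 9.92 ppm against 8.64 and 9.23 ppm, a difference of -0.13. All 7 genes rose at least 2-fold per cell, Polr1b by a ratio of 2.04. Polr1c, a subunit shared with RNA polymerase III, was at -0.05. Its level was 5.95 times that of Polr1a in low-MYC and 5.85 times in high-MYC cells. Ubtf, which shapes the active ribosomal DNA, differed by -0.06, and Rrn3, which brings the polymerase to the promoter, by -0.07. Mybbp1a, a nucleolar protein that binds the polymerase and can repress it, was the most abundant of the 7 and differed by -0.12, from 255 and 246 to 235 and 228 ppm. Tcof1, the nucleolar scaffold treacle, had the highest difference of the set, at 14.3 and 12.8 ppm in low-MYC and 14.97 and 14.65 ppm in high-MYC cells. Its log2 difference in share was 0.12 ± 0.062, and its low-MYC libraries were further apart from each other than its high-MYC libraries.

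A wider list of 108 further ribosome biogenesis genes, of which 106 were tested, ran close to the set. All 106 rose per cell (97.1% of all genes tested), 94 of them at least 2-fold by the ratio of means (88.7%, beside 87.7%), and in share 0 were called higher (1.78%) or lower (0.531%). Their median log2 difference in share was -0.08, 89 were below 0 (47.0%), and in 71 both high-MYC libraries lay below both low-MYC libraries (28.4%). Their summed share changed by -4.62%. Nol8 and Znhit3, at -0.20 and -0.18, were the 2 with an adjusted p below 0.05 by limma with Benjamini-Hochberg adjustment, and they were named after their values were seen. The 10 proliferation genes lay on the other side in share, with a median of 0.21 and a summed change of 17.3%. All 10 had both high-MYC libraries above both low-MYC libraries (33.9% of all genes tested). By the same limma fit, 6 of them were higher at an adjusted p below 0.05 (7.77% of all genes tested) and 0 at 0.01 (1.78%). Among 8 tested heat shock and oxidative stress genes, 3 were called lower in share (0.531% of all genes tested). Of the 8, 7 were below 0 (47.0%) and 1, Hspa5, was above, at 0.22. The summed share of the listed 9 changed by -13.8%. These comparison lists were chosen with earlier results of these data known, so their counts are a description and not support. Whether proliferation or stress moved the shares of the ribosome biogenesis genes was not tested.

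**Figure D3:**
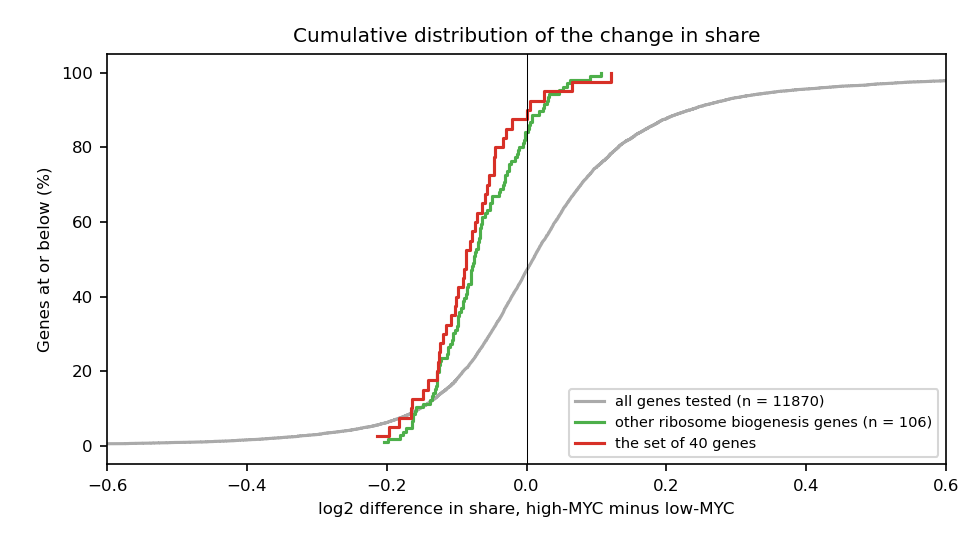
Cumulative percentage of genes at or below each log2 difference in share, for the 40 genes (red), the 106 other ribosome biogenesis genes tested (green) and all 11870 genes tested (grey). The red and green curves run together and lie left of the grey one over most of the range, with medians of -0.09, -0.08 and 0.01, and they end where the grey curve goes on.

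The changes of genes with and without an E-box near their start had overlapping ranges on both scales. The 25 genes with CACGTG within 1000 bp had a median log2 difference of 1.04 per cell and -0.09 in share, and the 10 without had 1.05 and -0.05. For the 8 genes with the motif in the promoter entry the medians were 1.03 and -0.08, and for the other 27 they were 1.05 and -0.09. The 21 genes with the motif within 1000 bp downstream had medians of 1.04 and -0.10. The 14 genes without it there had 1.05 and -0.06. The ranges in share overlapped in each split, from -0.20 to 0.00074 with and from -0.21 to 0.06 without the motif within 1000 bp. These medians are given as a description, with no test.

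Open chromatin at the starts of these genes was seen in nearly all of them. The TACh-seq table listed 4881417 reads with no column for the library. Its name refers to wild type and to peaks, while the labels of the wild-type and the FUBP-depleted (KOKD) samples all point to it, so it was taken as 1 list and the genotypes were not compared. Within 500 bp of the start, 39 of 40 genes had at least 1 read (97.5%), beside 76.1% of all genes tested and 84.3% of the protein-coding ones. The median was 123 reads for the set, 98 for all genes tested and 110 for protein-coding genes. Among genes with at least 1 read these medians were 126, 125 and 126, so the sets differed in the genes without reads. Within 1000 bp the medians of genes with a read were 151, 160 and 160. The sets were not matched for expression level. Imp4 had the most at 357, followed by Ncl at 327 and Nop14 at 319, and Rrp12 had 0. Averaged by position, reads peaked in the 100 bp before the start at 26.5 per gene in the set and 20.2 in all genes tested. No depth per library could be taken from the list.

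**Figure D4:**
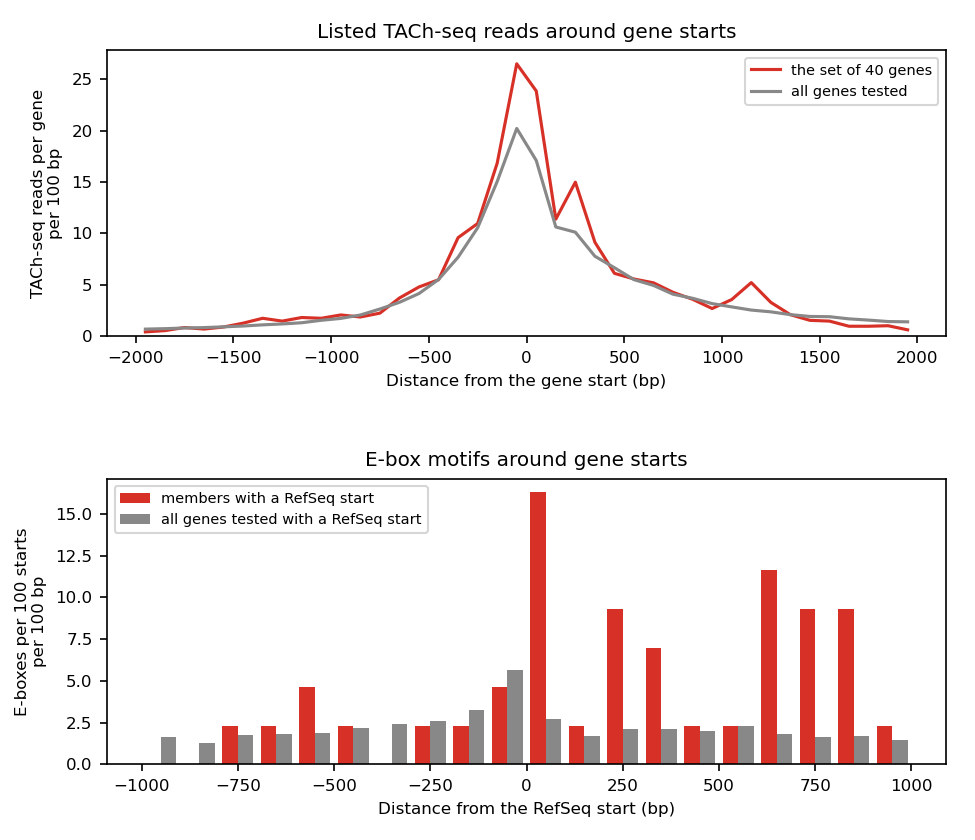
Top, listed TACh-seq reads per gene in bins of 100 bp around the gene start for the 40 genes (red) and all genes tested (grey). Bottom, CACGTG motifs per 100 RefSeq starts in bins of 100 bp for the genes of the set with an entry (red) and all tested genes with one (grey), where the red bar just after the start reaches 16.3 against 2.70; starts of 1 gene can share a motif.

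FUBP1 is a single-stranded DNA-binding protein that acts on Myc. Within the set it could be asked about only at Bop1 and Brix1, since all 166 listed peaks were on chromosome 15. Brix1, which encodes a factor for assembly of the large subunit, carried 1 peak at chr15:10476801-10481800 (mm10), inside the gene at 10474779 to 10485947 on the minus strand. The peak was 5000 bp wide, lay between 4147 and 9146 bp after the start and covered 44.8% of the gene. Bop1 had none, and of 459 tested genes on the chromosome 56 (12.2%) overlapped a peak. Of the 6 genes of the wider ribosome biogenesis list on this chromosome, 0 had a peak. The study reports that its ChIP antibody cross-reacts to some degree with FUBP2, so a listed peak may include FUBP2 signal. The list gives positions from 1 sample without heights, so no error can be put on it.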

How the data were processed

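The 4 RNA-seq libraries, 1 FUBP1 ChIP-seq sample and 4 TACh-seq samples came from MEFs. Per the labels and the study's methods, the authors mapped quality-trimmed RNA reads to mm10 transcripts with TopHat in Partek Flow, divided by transcript length and by a score from ERCC spike-in transcripts, and deposited the resulting signal, spike-in-normalized FPK. Depth in reads cannot be had from these values. ChIP-seq and TACh-seq reads were aligned with Bowtie2 and SICER was used for peaks. The deposited TACh-seq table also holds a mapping score per read, which was not used, and the deposited coordinates of peaks and reads were used as positions only.

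Shares were computed as each gene's percent or ppm of the summed deposited FPK. Log2(FPK + 0.1) and log2(ppm + 1) were fitted over all genes with a mean of at least 0.1 by limma 3.58.1 (lmFit, eBayes with trend) in R 4.3.3, with Benjamini-Hochberg adjustment over the 11870 genes and calls at 0.01. A fold is on the log2(value + constant) scale, which understates low genes, unless the ratio of means is used. The 2-fold numbers by role and for the wider list use the ratio of group means with no constant. The fit was tested on simulated data with planted differences larger than those of the ribosome biogenesis genes in share. It was not tested on differences as small as theirs. The counts of reads and motifs were made in Python 3.11.15 with pysam 0.24.0 from the deposited table and from RefSeq GRCm38.p6, whose promoters were checked against the genome.

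The 40 genes and the comparison lists were chosen with earlier results of these data known. All 40 could be named, by role. Of the other pathway genes, up to 5 in each direction were to be named if past 0.01 in share, and none was. Promoter windows were for at most 8 genes. Same-numbered libraries of the groups had deviations correlating at 0.0810 over the genes tested, with no label tying them. Of the 40 genes, 13 overlapped another gene in the table, all on the opposite strand. Alternatives were other constants, filters, thresholds, scalings and variance models, a replicate block and leaving out each library.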

Additional observations from a re-analysis of the deposited data

How the results depend on the processing

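All 40 genes stayed called higher per cell under each of the 11 alternatives run with that fit. The count at 2-fold or more moved from 27 to 4 with a constant of 1, where the median was 0.81, and ran from 18 without the second high-MYC library to 33 without the first, and was 35 by the ratio of means; the medians without 1 library ran from 0.99 to 1.07. In share, 0 genes were called in either direction under any alternative, except 2 lower at an adjusted p below 0.05. Without either high-MYC library 0 of all genes tested were called in share by limma, so the test then had nothing to say, and the median of the set ran from -0.09 to -0.08 over the libraries left out. The replicate block changed no call of the 40 genes, with 27 at 2-fold or more; the numbers do not pair the libraries, and under the block 0 of all genes tested were called in share, against 211 higher and 63 lower without it.

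Of 480 values of single genes in share, 13 changed sign, all of them in genes near 0. Ncl and Npm1 were at -0.0144 and -0.00965 with libraries scaled to the same median, at -0.0223 and -0.0175 without the 100 most abundant genes in the total, and at -0.0208 and -0.0515 after quantile normalization. Leaving out 1 library gave -0.0324 to 0.0339 for Ncl, -0.0445 to 0.0555 for Npm1, -0.0471 to 0.0971 for Bop1 and -0.101 to 0.0331 for Dkc1. The sign of these 4 genes in share therefore cannot be read. Genes with a promoter motif numbered 18 of 35 (51.4%, beside 30.1% of tested genes) when CACGCG and CGCGTG were added and 25 within 1000 bp of the start, the latter chosen after seeing the data and covering more sequence.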
